A study of Mus musculus with 6 samples.

Results

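The 9 G protein-coupled receptor genes described here were measured in RNA pulled down with tagged ribosomes. The tag was directed at the oligodendrocyte lineage, in mice fed cuprizone or kept as controls. The 9 receptors are Gpr37, Adgrg1, Adgrb3, Chrm1, Chrm3, Oprk1, Hrh3, Lpar1 and Ednrb. They were picked by gene symbol as receptors with a known role in progenitor growth or in remyelination. All 9 symbols had a row in the table of 39017 mouse genes. The C57BL/6 mice combine RiboTag, which puts an HA tag on the ribosomal protein RPL22 wherever Cre has been active, with Olig1-Cre, whose Cre follows the promoter of a transcription factor of the oligodendrocyte lineage. Both groups carry both alleles. The tissue was corpus callosum, the white matter tract between the hemispheres, and tagged ribosomes were pulled down with a monoclonal antibody against HA. The cuprizone group (replicates 30, 31 and 32) was fed 0.2% cuprizone, a copper chelator that kills oligodendrocytes, and the control group (replicates 24, 26 and 27) is labelled Vehicle and Control. Per the protocol, the mice were young adult females (8 to 10 weeks old), and the cuprizone diet ran 6 or 9 weeks before a recovery of 3 weeks on control diet. The labels do not say at which of these stages the cuprizone libraries were made. Nothing in the labels says that the libraries come from separate mice, so the p-values measure the spread between these samples, which may be technical.

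These receptors sit in the membrane and pass the binding of a lipid, transmitter, peptide or matrix protein to G proteins inside the cell. In the oligodendrocyte lineage they set how long progenitors keep dividing and when they go on to make myelin, and several were found through drugs. Blockers of muscarinic and histamine receptors and activators of the kappa opioid receptor are known to favour the step from progenitor to myelinating cell. Loss of Gpr37 in mice is known to bring that step forward, and loss of Adgrg1 to cut progenitor division short.

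Depth was similar across the libraries, with 19455245 to 22381307 counts in the cuprizone libraries and 18549360 to 18771737 in the controls. Levels are CPM, each library's counts scaled to a common total, with TMM factors that correct for a few abundant transcripts taking up a share of the reads. Mature oligodendrocyte markers were present in every library. All 12 fell in cuprizone (11 without replicate 30), beside 5.70% of all tested genes, with a median log2 fold change of -3.08. Markers of astrocytes, neurons, microglia and vessels were also present in every library, with none of their genes at 0. Astrocyte markers summed to 26228, 30867 and 15982 CPM in cuprizone replicates 30, 31 and 32. The mature oligodendrocyte markers summed to less there, at 8235, 15108 and 8080 CPM. In control the astrocyte sum was the lower, at 22720 to 25410 against 61840 to 83506 CPM. The lists hold different genes, so these sums are not shares of RNA. No RNA from before the pull-down is among the 6 samples, so enrichment was not tested. Rpl22, which carries the tag, was at 74.0, 87.3 and 67.7 CPM in cuprizone and 75.2, 62.2 and 73.8 CPM in control. Olig1, whose promoter drives Cre, fell to 661 ± 167 CPM in cuprizone, against 1438 ± 184 CPM in control (SD, n = 3; edgeR adjusted p = 0.0334, 0.0949 to 0.113 in fits that lacked cuprizone replicate 30 or any 1 control). Cuprizone replicate 32 stood apart from its group. Its chi-square over degrees of freedom was 85.1 with replicate 30 and 101 with replicate 31, while replicates 30 and 31 gave 26.6. Microglial and vascular markers were highest there, with sums of 1384, 1669 and 2874 CPM and of 100.3, 60.9 and 153 CPM in cuprizone replicates 30, 31 and 32, against 987 to 1771 CPM and 56.7 to 63.1 CPM in control. None of these 16 genes passed with edgeR on all 6 libraries, and 3 had an unadjusted p under 0.05, beside 23.3% of all tested genes. DESeq2 called Acta2 and Flt1 higher, beside 5.21% of all genes it tested, and edgeR without cuprizone replicate 31 called Acta2 and Cldn5. The median log2 fold change of the 8 vascular markers was 1.15, or 0.54 without replicate 32, and that of the 8 microglial markers 0.58, or 0.21 without it. The part of these cells in the results was not tested.

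The 2 receptors that fell in cuprizone were Lpar1 and Gpr37. Windows around their transcription starts are shown because these genes passed the threshold, and shared control of the 2 was not tested. RefSeq gives a window of 250 bases before to 50 after each start, in build GRCm38.p6, for 7 of the 9 receptors. Capitals mark matches, on either strand, to 5 short motifs, each searched by its letters and its reverse complement: the SOX cores ACAAAG and ACAATG, the MYRF core CTGGCAC, the E-box CAGCTG and the TCF core ATCAAAG, which holds no other motif of the search. The window of Gpr37 is chr6:25689931-25690230, minus strand. The most upstream window of Lpar1 is chr4:58553442-58553741 and its most downstream one chr4:58499354-58499653, both on the minus strand.
Gpr37: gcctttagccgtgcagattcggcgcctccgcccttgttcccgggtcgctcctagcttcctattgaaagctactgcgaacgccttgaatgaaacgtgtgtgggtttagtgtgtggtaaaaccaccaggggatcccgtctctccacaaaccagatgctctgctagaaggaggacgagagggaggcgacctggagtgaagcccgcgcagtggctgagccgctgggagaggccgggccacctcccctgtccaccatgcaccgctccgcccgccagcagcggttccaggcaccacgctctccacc
Lpar1, upstream start: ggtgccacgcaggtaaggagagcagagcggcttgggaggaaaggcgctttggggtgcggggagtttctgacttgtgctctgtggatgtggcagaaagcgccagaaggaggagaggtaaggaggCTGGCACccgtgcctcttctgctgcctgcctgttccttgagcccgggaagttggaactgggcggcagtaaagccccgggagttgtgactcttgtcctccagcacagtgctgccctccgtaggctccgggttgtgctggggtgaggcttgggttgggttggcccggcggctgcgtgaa
Lpar1, downstream start: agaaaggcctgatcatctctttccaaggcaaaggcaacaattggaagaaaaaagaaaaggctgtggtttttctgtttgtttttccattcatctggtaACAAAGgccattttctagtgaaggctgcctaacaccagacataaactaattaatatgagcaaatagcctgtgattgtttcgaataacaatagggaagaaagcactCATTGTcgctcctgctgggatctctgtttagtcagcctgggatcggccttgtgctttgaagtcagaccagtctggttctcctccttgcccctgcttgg
The Gpr37 window holds none of the 5 motifs, 62.7% G and C and 21 CpG pairs. The upstream Lpar1 window holds the MYRF core at 127 bases before the start, and the downstream one holds ACAAAG at 153 and ACAATG at 48 bases before it. A window of Lpar1 between them, not printed, holds ACAAAG at 28 bases before its start. Adgrg1, which did not pass with edgeR, also holds matches in its windows. They are ACAAAG at 80 bases before its upstream start and CTGGCAC at 198 bases before its downstream start. Among 32851 windows of this length, 5.01% hold CTGGCAC, 18.7% ACAAAG, 12.6% ACAATG, 16.3% CAGCTG and 3.73% ATCAAAG, and the median window has 52.7% G and C and 7 CpG pairs. A match describes letters in a window and was not tested as a binding site.

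All 9 receptors passed the filter on low counts and were tested. Of these 2 fell and 0 rose at an adjusted p of 0.05 (edgeR quasi-likelihood test over 16569 genes, 2-sided), beside 5.70% of all tested genes lower and 1.87% higher. At an unadjusted p under 0.05 there were 5 receptors, beside 23.3% of all tested genes. With DESeq2 3 of the 9 were lower, where 8.46% of all genes it tested were, and 0 were higher, where 5.21% were. In 3 receptors (Lpar1, Gpr37 and Adgrg1) every cuprizone library lay below every control, which held for 17.6% of tested genes. In 0 of the 9 did every cuprizone library lie above every control, which held for 12.6%. The median log2 fold change of the 9 was 0.41, or 0.23 without control replicate 24, beside 0.02 over all genes. In bulk RNA, fewer cells of a type and less RNA per cell cannot be told apart.

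**Figure D1:**
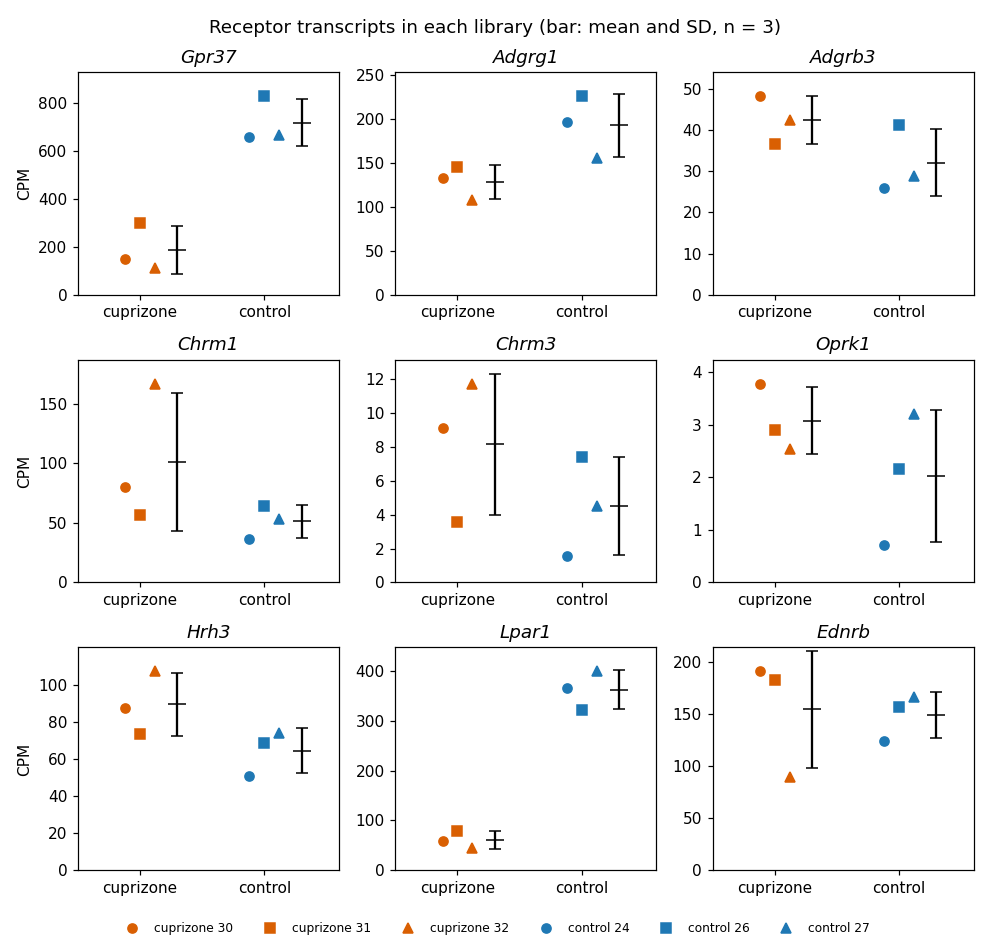
Level of each receptor transcript in CPM (y axis, from 0) in the 3 cuprizone and 3 control libraries, one panel per gene, with the group mean and SD beside the points. Lpar1, Gpr37 and Adgrg1 have no overlap between the groups, while the other 6 receptors overlap.

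Lpar1 encodes a receptor for lysophosphatidic acid (LPA), a lipid that reshapes the cytoskeleton of maturing oligodendrocytes, and lies on chromosome 4 from 58435255 to 58553898 (GRCm38, minus strand). It had 58.1, 79.2 and 44.6 CPM in cuprizone replicates 30, 31 and 32, against 365, 322 and 399 CPM in control replicates 24, 26 and 27. The groups were far apart, and the highest cuprizone library was well under the lowest control. The mean was 16.7% of control, a log2 fold change of -2.58 ± 0.23 (SE; edgeR adjusted p = 0.00185), and the call held with every library left out in turn (log2 fold change -2.82 to -2.40, adjusted p at most 0.0148).

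Several enzymes of LPA metabolism were lower too. Of 11 tested genes on the list 3 fell and 0 rose, beside 5.70% and 1.87% of all genes, and the median log2 fold change was 0.28. That median was 0.09 without cuprizone replicate 30 and 0.19 without control replicate 27. At an unadjusted edgeR p under 0.05 there were 6 of the 11, beside 23.3% of all tested genes. In 4 genes every cuprizone library lay above every control, and in 3 below, beside 12.6% and 17.6% of tested genes. The 3 that fell all act on lipids rather than bind LPA as receptors. Enpp2 encodes autotaxin, the secreted enzyme that makes LPA and is abundant in oligodendrocytes. It had 149, 259.6 and 95.8 CPM in cuprizone, against 843, 1101 and 2055 CPM in control, a log2 fold change of -2.99 ± 0.48 (edgeR adjusted p = 0.0125, or 0.0649 without cuprizone replicate 30). Both groups spread widely for Enpp2, and they did not overlap. Plpp2, a lipid phosphatase that can remove the phosphate of LPA, had 6.81, 9.62 and 5.52 CPM in cuprizone, against 43.8, 36.8 and 32.3 CPM in control (-2.36 ± 0.23, edgeR adjusted p = 0.00212). Pla2g16, a phospholipase and acyltransferase, fell by 1.16 on the log2 scale (edgeR adjusted p = 0.0201, and 0.0612 to 0.0881 in the fits lacking cuprizone replicate 30 or 1 of the controls). Leaving out cuprizone replicate 30 reduced the list genes that fell to 1, and leaving out any control reduced them to 2.

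The remaining LPA receptors stayed at low levels and did not pass. Lpar2, Lpar3, Lpar4, Lpar5 and Lpar6 had group means under 5 CPM in both diets, with log2 fold changes of 1.18, 0.41, 0.28, 1.01 and 0.29. Lpar2 and Lpar3 did not overlap between the diets, and the unadjusted edgeR p was 0.0141 for Lpar2 and 0.0481 for Lpar5. Plpp1 and Plpp3, relatives of Plpp2, had log2 fold changes of 0.12 and 0.10. The ratio of Enpp2 to Lpar1 within a library was 2.56, 3.28 and 2.15 in cuprizone and 2.31, 3.42 and 5.15 in control, so the ratio overlapped between the diets.

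Gpr37 encodes a receptor best known from brain, reported to bind prosaposin, whose loss in mice lets oligodendrocytes mature too early. It lies on chromosome 6 from 25665878 to 25690729 (minus strand). It had 149, 298 and 112 CPM in cuprizone, against 659, 829.6 and 664 CPM in control. Every cuprizone library was below every control, and replicate 31 was the highest of its group. The mean was 26% of control, a log2 fold change of -1.94 ± 0.37 (edgeR adjusted p = 0.0222). The adjusted p was 0.0625, 0.0802 and 0.0670 without control replicates 24, 26 and 27 and 0.0948 without cuprizone replicate 30, so 1 receptor passed in each of those fits, and it was 0.00247 without replicate 31 and 0.0235 without replicate 32.

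Relative to Olig1 within each library, both receptors were lower in every cuprizone library than in any control, at 0.315, 0.374 and 0.157 against 0.399, 0.629 and 0.493 for Gpr37 and at 0.123, 0.0994 and 0.0626 against 0.221, 0.244 and 0.297 for Lpar1. These ratios are of CPM and are not corrected for transcript length.

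None of the 5 genes fixed around Gpr37 passed with edgeR or DESeq2, and 0 had an unadjusted p under 0.05. Gpr37l1, its closest relative and a receptor of astrocytes, had 1952, 1805 and 907 CPM in cuprizone, against 1055, 1181 and 1121 CPM in control (log2 fold change 0.47 ± 0.30, edgeR adjusted p = 0.38). Cuprizone replicate 32 was the lowest of all 6 libraries and the other 2 were the highest. Without it Gpr37l1 was higher in cuprizone (0.75, edgeR adjusted p = 0.0192). Psap, which encodes prosaposin, was at 2373 ± 63.9 CPM in cuprizone and 2072 ± 101 CPM in control (0.20, edgeR adjusted p = 0.54). The ratio of Gpr37 to Gpr37l1 was 0.0766, 0.165 and 0.123 in cuprizone, against 0.625, 0.702 and 0.593 in control, with no overlap.

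The genes whose levels across the 6 libraries lay nearest to those of the called receptors were picked by the smallest root mean square difference of log2 CPM centred on the control mean, among 11284 named genes whose mean over the 6 libraries was at least 5 CPM, a mean that Bche reached through its control values. For Gpr37 these were Emilin2, an extracellular matrix glycoprotein (0.100), Bche, which encodes butyrylcholinesterase (0.127), and Trf, which encodes transferrin and is abundant in oligodendrocytes (0.142). For Lpar1 they were Micall1, a protein of endosome recycling (0.0912), Shtn1, which links actin to adhesion in growing axons (0.125), and Adamts4, a matrix protease made by mature oligodendrocytes (0.160). This is a description of 6 libraries that fall into 2 groups, and any gene with a similar fall lies near.

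**Figure D2:**
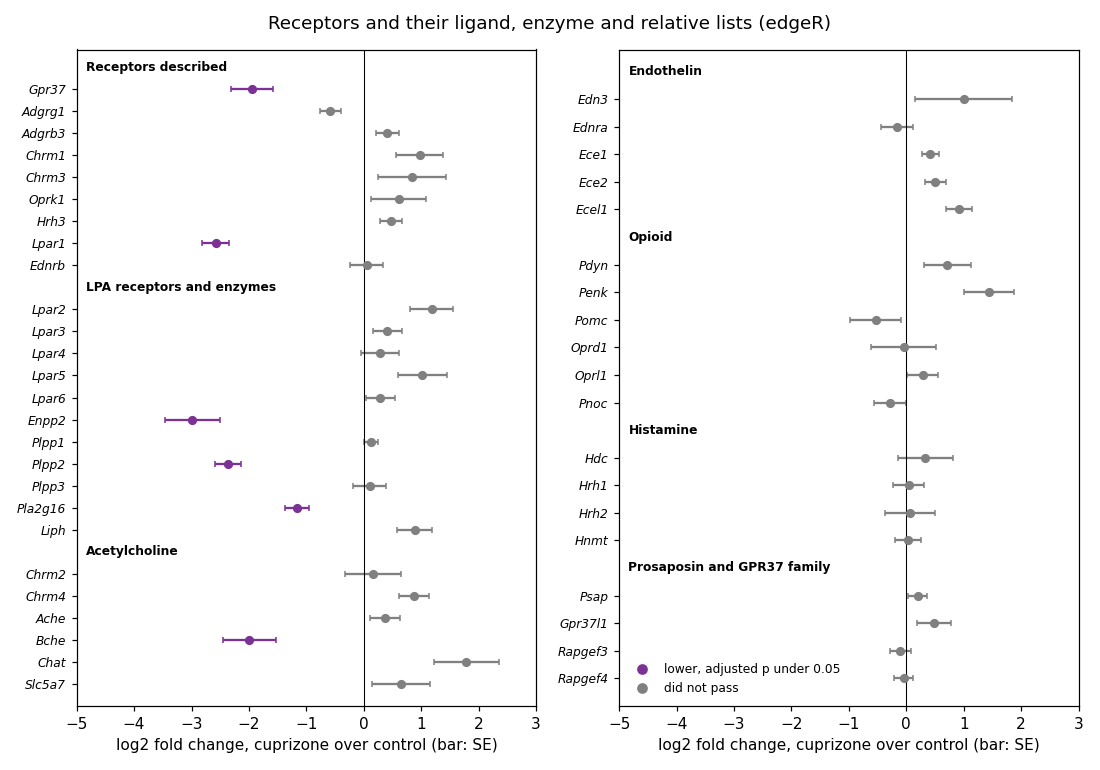
Log2 fold change of cuprizone over control (x axis, bar: SE) for the 9 receptors and for tested genes of the LPA, acetylcholine, endothelin, opioid, histamine and prosaposin lists. Purple points passed as lower and grey points did not pass. Enpp2, Lpar1 and Plpp2 have the most negative values, at -2.99, -2.58 and -2.36.

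Adgrg1 encodes an adhesion receptor of progenitors (chromosome 8, 94974751 to 95014217, plus strand) that is cleaved in its extracellular part and signals to RhoA. It had 134, 146 and 108 CPM in cuprizone, against 197, 227 and 156 CPM in control. The groups did not overlap, with the gap between cuprizone replicate 31 and control replicate 27 a narrow one. The log2 fold change was -0.58 ± 0.18, which did not pass with edgeR (adjusted p = 0.11) and passed with DESeq2 (adjusted p = 0.0430). Progenitor markers gave no called gene among 7 tested with edgeR or DESeq2 (1 at an unadjusted p under 0.05), with a median log2 fold change of -0.11 (between -0.32 and 0.09 when 1 library is omitted), and their summed level was 366 to 739 CPM in cuprizone and 574 to 824 CPM in control. The part of these cells in the level of Adgrg1 was not tested.

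Adgrb3 encodes a receptor for C1q-like proteins known mainly from synapses (chromosome 1, 25067476 to 25829707, minus strand). It had 48.3, 36.5 and 42.6 CPM in cuprizone, against 26, 41.3 and 28.9 CPM in control. Control replicate 26 lay among the cuprizone libraries, and the log2 fold change of 0.41 ± 0.20 did not pass (edgeR adjusted p = 0.27). Of the 15 tested genes listed with the adhesion receptors 1 fell and 0 rose, beside 5.70% and 1.87% of all genes. With DESeq2 2 of the list were lower, beside 8.46% of all genes it tested. The gene that fell with edgeR was Gna12, a G protein alpha subunit that passes signals of adhesion and LPA receptors to RhoA. Gna12 was at 339 ± 85.2 CPM in cuprizone and 934 ± 47.2 CPM in control (-1.46 ± 0.21, edgeR adjusted p = 0.0080, at most 0.0481 with a library left out). Its relative Gna13 had a log2 fold change of 0.11 and Rhoa one of -0.23. C1ql1, a ligand of Adgrb3 made by progenitors, was at 55.8, 67.1 and 44.2 CPM in cuprizone, against 87.7, 72.5 and 68.8 CPM in control, and did not pass (-0.45, edgeR adjusted p = 0.18). The ligands of Adgrg1 on the list were Tgm2, a transglutaminase with a log2 fold change of 0.31 that did not pass, and the collagen gene Col3a1, which was too low to test.

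Chrm1 and Chrm3 encode muscarinic acetylcholine receptors that raise calcium through phospholipase C and are the targets of drugs that favour remyelination. Chrm1 (chromosome 19, 8663789 to 8683587, plus strand) had 80.4, 56.3 and 167 CPM in cuprizone, against 36.8, 64.3 and 53.4 CPM in control. Replicate 32 was the highest, and replicate 31 lay inside the range of the controls. The log2 fold change was 0.97 ± 0.41 (edgeR adjusted p = 0.21), or 0.41 without replicate 32 (adjusted p = 0.39). Chrm3 (chromosome 13, 9875486 to 10360847, minus strand) had 9.11, 3.59 and 11.7 CPM in cuprizone, against 1.59, 7.42 and 4.54 CPM in control, from 27 to 249 counts a library. The groups overlapped, with a log2 fold change of 0.85 ± 0.59 (edgeR adjusted p = 0.44), or 0.49 without cuprizone replicate 32 and 0.46 without control replicate 24. The small RNA gene Gm22820 shares 329 exonic bases with Chrm1 on the opposite strand and had 6 to 24 counts a library, and reads of that stretch may belong to either.

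Both muscarinic receptors are made by neurons as well as by progenitors, and neuron markers varied in the same libraries. Of 10 neuron markers 0 passed with edgeR (0 at an unadjusted p under 0.05), all 10 had positive log2 fold changes, and none was at 0 in any library. The median was 0.41, and 1 library moved it, to 0.06 without cuprizone replicate 32 or 0.17 without control replicate 24. The summed level of the 10 markers was 3411, 2553 and 5922 CPM in cuprizone replicates 30, 31 and 32, and 2321, 3136 and 3325 CPM in control replicates 24, 26 and 27. Replicate 32 was the highest for these markers and for both receptors. Chrm1 stood at 2.36%, 2.20% and 2.82% of that sum in cuprizone, against 1.59%, 2.05% and 1.61% in control. Relative to Camk2a, a single marker of the list, Chrm1 stood at 10.1%, 8.01% and 7.22% in cuprizone. In control this ratio was 4.34%, 8.95% and 6.29%, so it overlapped between the diets. The part of neuronal RNA in the level of these receptors was not tested.

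Among 6 tested genes of acetylcholine handling 1 fell and 0 rose, beside 5.70% and 1.87% of all genes. The gene that fell was Bche, whose product breaks down choline esters, with 2.80, 6.80 and 1.70 CPM in cuprizone, against 12.2, 17.9 and 15.1 CPM in control (-1.99 ± 0.47, edgeR adjusted p = 0.0484). The groups did not overlap, but the call was lost without any library other than cuprizone replicate 31 (adjusted p up to 0.156), with upper-quartile scaling (0.0511) and with no filter on low counts (0.0550). Chrm4, a muscarinic receptor that inhibits adenylyl cyclase, had a log2 fold change of 0.87 (edgeR adjusted p = 0.10), Chat, which makes acetylcholine, one of 1.78 (0.11), and Ache, the main acetylcholinesterase, one of 0.37 (0.44). DESeq2 called Chrm4 and Chat higher and Bche lower, beside 5.21% and 8.46% of all genes it tested.

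Hrh3 encodes a histamine receptor that lowers cyclic AMP (chromosome 2, 180099465 to 180104488, minus strand). It had 87.5, 73.5 and 107 CPM in cuprizone, against 51.0, 68.3 and 74.1 CPM in control. The groups met at cuprizone replicate 31 and control replicate 27, and the log2 fold change of 0.47 ± 0.19 did not pass (edgeR adjusted p = 0.20). Hrh3 stood at 2.57%, 2.88% and 1.81% of the summed neuron markers in cuprizone and at 2.20%, 2.18% and 2.23% in control. Whether counting used strand is not stated, and the antisense gene Gm17180 shares 349 exonic bases with Hrh3 and had 68 to 223 counts a library, so reads of the pair cannot be told apart. Of the 4 other histamine genes tested 0 passed with edgeR or DESeq2, and 0 had an unadjusted p under 0.05. Hdc, which makes histamine, was at 5.69 ± 3.03 CPM in cuprizone and 4.52 ± 1.90 CPM in control. Hrh1 and Hrh2, the other receptors, had log2 fold changes of 0.04 and 0.06.

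Oprk1 encodes the kappa opioid receptor (chromosome 1, 5588466 to 5606131, plus strand) and was the least abundant of the 9. It had 3.79, 2.91 and 2.55 CPM in cuprizone, against 0.707, 2.15 and 3.20 CPM in control, from 12 to 84 counts a library. The groups overlapped, and the log2 fold change of 0.61 ± 0.48 did not pass (edgeR adjusted p = 0.50). Pdyn, which encodes the precursor of its peptide ligands, was at 45.5, 21.5 and 38.8 CPM in cuprizone, against 10.5, 30.04 and 23.9 CPM in control (0.71 ± 0.41, edgeR adjusted p = 0.35). Penk, the enkephalin precursor, was at 284, 285 and 759 CPM in cuprizone, against 126, 145 and 219 CPM in control, with no overlap (1.44 ± 0.43, edgeR adjusted p = 0.10; 0.80 without replicate 32). Pomc, another opioid precursor, had a log2 fold change of -0.53. Of 6 tested opioid genes 0 passed with edgeR and 1 had an unadjusted p under 0.05, while DESeq2 called Penk (adjusted p = 0.00581).

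Penk is also a marker of striatal neurons, and the striatal list moved with it. Of its 8 genes 3 rose, beside 1.87% of all genes (2 without control replicate 24 or 26 or cuprizone replicate 30, 4 without cuprizone replicate 31 or 32). With DESeq2 8 rose, beside 5.21% of all genes it tested. All 8 were higher in every cuprizone library than in any control, which held for 12.6% of tested genes. The median log2 fold change of the 8 was 1.37. Their summed level was 1336 to 2445 CPM in cuprizone and 610 to 923 CPM in control, with none at 0. The part of striatal tissue in these values was not tested.

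Ednrb encodes an endothelin receptor of progenitors and astrocytes (chromosome 14, 103814625 to 103844402, minus strand). It had 191, 183 and 89.8 CPM in cuprizone, against 124, 157 and 167 CPM in control. In cuprizone 2 libraries were above all controls and replicate 32 was below them. The log2 fold change was 0.05 ± 0.29 (edgeR adjusted p = 0.94), 0.33 without replicate 32 (adjusted p = 0.23), and its sign changed with the library left out.

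The astrocyte markers showed the same dip in replicate 32. Of 10 markers 0 passed with edgeR or DESeq2 (0 at an unadjusted p under 0.05), and none was at 0. The median log2 fold change was 0.07, with 0.29 without replicate 32 and -0.15 without replicate 31. The summed level of these markers was 26228, 30867 and 15982 CPM in cuprizone replicates 30, 31 and 32 and ran from 22720 to 25410 CPM in control. The ratio of Ednrb to Aldh1l1, an astrocyte enzyme, was 0.626, 0.532 and 0.533 in cuprizone and 0.555, 0.670 and 0.594 in control, overlapping between the diets. Whether astrocyte RNA set the level of Ednrb was not tested.

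Of 5 tested endothelin genes 0 passed with edgeR, while 3 were under 0.05 unadjusted, beside 23.3% of all genes, and 1 was higher with DESeq2, beside 5.21%. Ecel1, a relative of the endothelin-converting enzymes, had 9.33, 12.6 and 8.30 CPM in cuprizone, against 4.36, 5.21 and 6.47 CPM in control (0.92 ± 0.23, edgeR adjusted p = 0.0572, and 0.00555 with DESeq2). Ece2 and Ece1, which cut the endothelin precursors, had log2 fold changes of 0.50 and 0.42 (edgeR adjusted p = 0.16 for each), and neither overlapped between the diets. Without cuprizone replicate 32, Ecel1 and Ece2 were higher (adjusted p = 0.0431 and 0.00788). The ligand gene Edn3 had 1.31, 0.727 and 5.43 CPM in cuprizone, against 0.648, 0.680 and 2.39 CPM in control. The groups overlapped, with replicate 32 the highest, and the log2 fold change of 0.996 did not pass (edgeR adjusted p = 0.53). Edn1 and Edn2 were too low to test.

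Levels per kilobase of merged exons allow the receptors to be ordered, and the order differed at the top. In cuprizone Ednrb was first at 36.3 ± 13.2 CPM per kb (SD, n = 3), followed by Gpr37 (30.7 ± 16.2), Hrh3 (28.4 ± 5.37), Adgrg1 (23.8 ± 3.57), Chrm1 (15.6 ± 8.97) and, at position 6, Lpar1 (14.1 ± 4.06). Adgrb3 (2.29 ± 0.318), Chrm3 (1.30 ± 0.666) and Oprk1 (0.337 ± 0.0697) came last. Each of the first 6 overlapped with its neighbours among them, so their order in cuprizone is within the spread of the libraries.

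In control Gpr37 was first at 118 ± 16.0 CPM per kb and Lpar1 came next at 84.4 ± 9.08. They were followed by Adgrg1 (35.6 ± 6.57), Ednrb (34.97 ± 5.24), Hrh3 (20.5 ± 3.82), Chrm1 (7.94 ± 2.13), Adgrb3 (1.73 ± 0.437), Chrm3 (0.723 ± 0.466) and Oprk1 (0.221 ± 0.137). The pairs Adgrg1 with Ednrb and Chrm3 with Oprk1 overlapped, and the other neighbours in that order did not. Of the summed level of the 9, Gpr37 made up 20.1% in cuprizone and 38.8% in control, and Lpar1 9.25% in cuprizone and 27.7% in control.

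**Figure D3:**
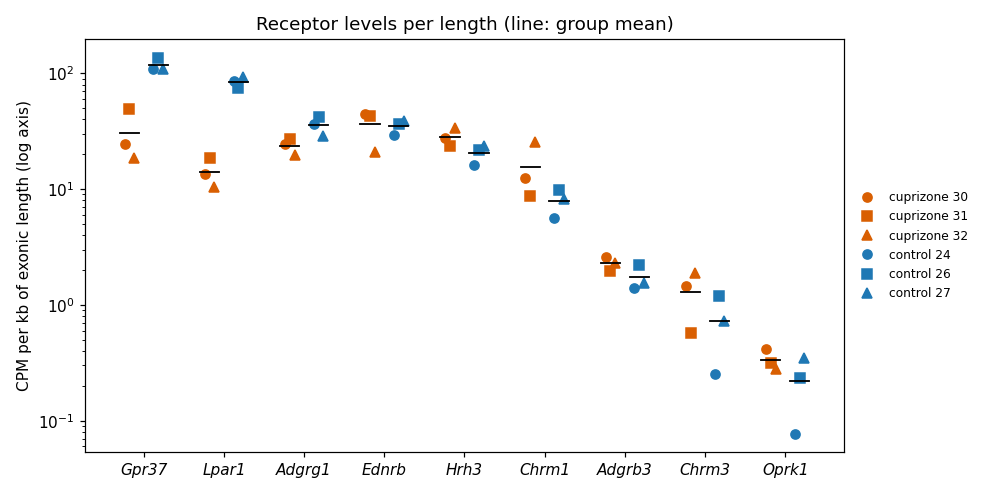
Receptor levels in CPM per kilobase of merged exonic length (y axis, log scale) in each library, ordered by the control mean, with cuprizone left of control and a line at each group mean. Gpr37 and Lpar1 lie among the other receptors in cuprizone, at 30.7 and 14.1 CPM per kb, and lead in control, at 118 and 84.4 CPM per kb.

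The libraries of a group did not all move alike. Relative to the control mean on the log2 scale, Gpr37 stood at -2.26, -1.27 and -2.68 and Lpar1 at -2.64, -2.19 and -3.02 in cuprizone replicates 30, 31 and 32. The median of the 12 mature oligodendrocyte markers stood at -3.34, -2.69 and -3.65. The receptors and the markers alike had replicate 31 nearest to control and replicate 32 farthest from it. The 6 newly formed oligodendrocyte markers had medians of -0.66, -0.26 and -0.79 in the same order. With edgeR 1 of them, Enpp6, fell, beside 5.70% of all genes (0 passed without control replicate 24, 26 or 27, and 2 fell without cuprizone replicate 31). Without cuprizone replicate 32, 1 fell and 1 rose. With DESeq2 3 were lower, beside 8.46% of all genes it tested.

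**Figure D4:**
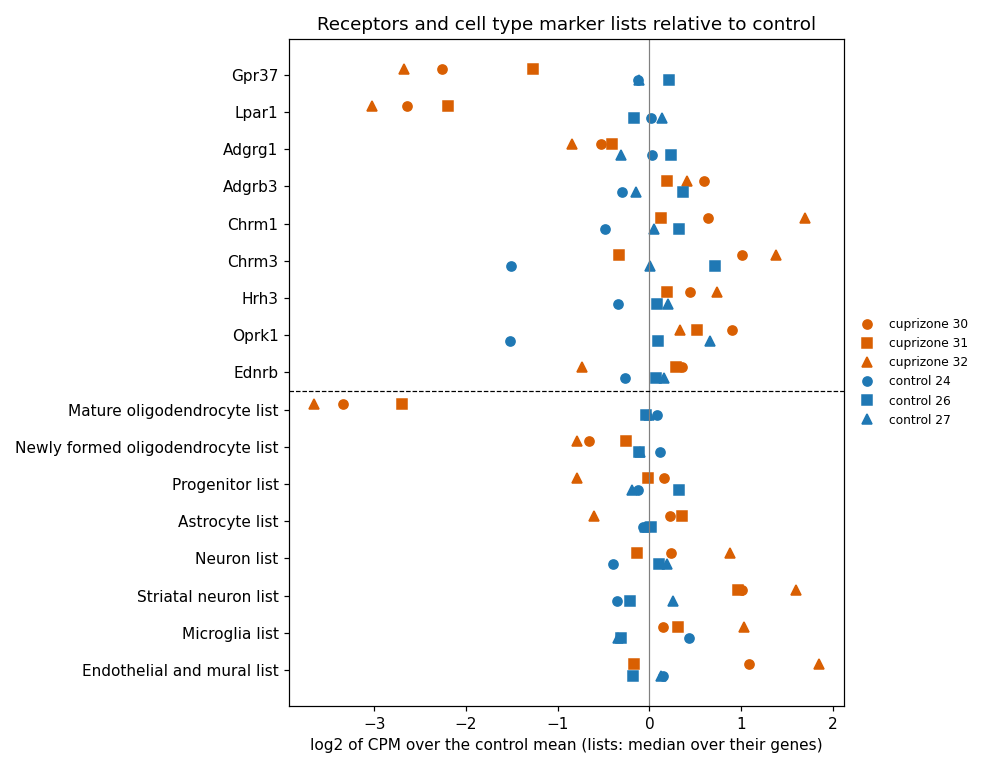
Log2 of CPM over the control mean (x axis) for each receptor, above the dashed line, and the median of the same value over each marker list, below it, in the 3 cuprizone and 3 control libraries. Gpr37 and Lpar1 lie left of all controls, between the newly formed and the mature oligodendrocyte lists in cuprizone replicates 30, 31 and 32.

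Downstream of the receptors, most G protein genes did not pass. Of 23 tested 3 fell and 0 rose, beside 5.70% of all genes lower, with a median log2 fold change of 0.03 (-0.05 to 0.07 with a library left out). Gnai1, an alpha subunit that inhibits adenylyl cyclase, was at 62.5 ± 10.2 CPM in cuprizone and 181 ± 18.5 CPM in control (-1.54 ± 0.16, edgeR adjusted p = 0.00248). Its relatives Gnai2 and Gnai3 had log2 fold changes of 0.10 and -0.11 and did not pass. Gng11 and Gng8, gamma subunits, were at 19.0 ± 7.26 and 1.28 ± 0.497 CPM in cuprizone, against 65.6 ± 4.46 and 7.42 ± 0.508 CPM in control (-1.78 and -2.53). These 3 genes passed with every library left out in turn.

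Of 30 tested cyclases, phospholipases C and regulators of receptor signalling, 1 rose and 1 fell, beside 1.87% and 5.70% of all genes, with a median log2 fold change of 0.22. Rgs9, which shortens G protein signals and is also on the striatal list, rose to 83.5 ± 16.0 CPM in cuprizone, against 32.3 ± 4.80 CPM in control (1.37 ± 0.18, edgeR adjusted p = 0.00645). Rgs3, of the same family, fell to 19.6 ± 6.37 CPM in cuprizone, against 48.8 ± 2.35 CPM in control (-1.32, edgeR adjusted p = 0.0149). Rgs3 was lost in the fits lacking any 1 control or cuprizone replicate 30 (edgeR adjusted p = 0.0532 to 0.0679). The count of genes that rose was 2 without control replicate 24 or cuprizone replicate 32.

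Among 35 other tested receptors of the lineage and its neighbours, 2 rose and 1 fell, beside 1.87% and 5.70% of all genes. Gpr62, an orphan receptor of mature oligodendrocytes, had 17.5, 32.4 and 16.6 CPM in cuprizone, against 187, 179 and 163 CPM in control (-2.99 ± 0.28, edgeR adjusted p = 0.0019). Cxcr4, a chemokine receptor of progenitors and immune cells, rose to 20.6, 21.04 and 29.1 CPM in cuprizone, against 9.61, 6.18 and 4.31 CPM in control (1.81 ± 0.30, edgeR adjusted p = 0.0135, or 0.0727 without control replicate 26). Drd2, a dopamine receptor that is also a striatal marker, rose by 1.31 on the log2 scale (edgeR adjusted p = 0.0236, and 0.0742, 0.0868 and 0.0550 in fits lacking control replicate 24, control replicate 26 or cuprizone replicate 30). Gpr17, which marks cells on the way from progenitor to oligodendrocyte, was at 397, 408 and 286 CPM in cuprizone and 335, 389 and 329 CPM in control (0.05, edgeR adjusted p = 0.90). In each of these 3 fits 1 receptor of the list rose, and in the fit lacking cuprizone replicate 32 there were 6 that rose and 2 that fell.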

How the data were processed

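RNA from the 6 pull-downs was sequenced, and the authors deposited whole-number counts for each mouse gene (Ensembl identifiers), not normalized. The submitters' processing notes name bcl2fastq 2.17 and mm10. How reads were aligned and counted, with which annotation and strand setting, is not stated in these sources. Columns were matched to samples by title and grouped by title and treatment. Names, coordinates and merged exon lengths are from GENCODE M21 of GRCm38 (the assembly of mm10), which matched 37693 of 39017 identifiers. By symbol, 2 list genes (Slc18a3, Lhfpl3) were not found.

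The test was edgeR 4.0.16 (R 4.3.3): filterByExpr (minimum count 10, total 15), TMM, glmQLFit (robust) and glmQLFTest, Benjamini-Hochberg over 16569 genes, threshold 0.05. SE is the log2 fold change over the square root of F. The procedure was tested on simulated data. No pair of replicates agreed within sampling noise, with chi-square per degree of freedom of at least 24.4. A permutation of 3 against 3 cannot go below 0.1, so none was run. Each result was recomputed with upper-quartile or RLE scaling, with TMM factors that ignore mature oligodendrocyte markers and the top 20 genes by abundance, unfiltered, with CPM over 1 in 3 libraries, with DESeq2 1.42.0 or limma-voom (limma 3.58.1), and with each library left out.

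The receptors and lists were chosen with earlier results of these data known. Named genes are the 9 receptors, the list genes past the threshold (at most 6 a list) or the 3 with the smallest adjusted p, the 3 genes most like each called receptor, and Rpl22, Olig1, Mbp and Mog. Others (Lpar2 to Lpar6, Plpp1, Plpp3, Gna13, Rhoa, C1ql1, Tgm2, Col3a1, Chrm4, Chat, Ache, Edn1, Edn2, Edn3, Gnai2, Gnai3, Gpr17 and Enpp6) were chosen after their values were seen, as were Aldh1l1 and Camk2a for ratios. Some results are not reported here. The likeness measure used log2 of CPM plus 0.5.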

Additional observations from a re-analysis of the deposited data

How the results depend on the processing

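Lpar1 passed under all 13 alternatives, with log2 fold changes of -2.82 to -2.40. Gpr37 passed under 9 of 13; with a library left out it ranged from -2.46 to -1.68. DESeq2 called Adgrg1 (-0.57). Ednrb, not called under any of the 13, turned negative with limma-voom (-0.0195) and ranged from -0.13 to 0.33 with a library left out. With a library left out, 1 to 2 receptors fell, 65 to 464 genes rose and 474 to 963 fell in the whole table. In the ligand, enzyme and relative lists 2 to 5 fell and 0 to 5 rose, in the G protein and regulator lists 1 to 2 rose, and among the other lineage receptors 1 to 6 rose and 1 to 2 fell. DESeq2 called 862 genes higher, and 4, 7 and 6 higher in those lists in the same order, with 2 of the other lineage receptors lower. Upper-quartile scaling and no filter each gave 1 higher gene in the first of these lists (Ecel1). Hrh2 had -0.0149 with limma-voom; with a library left out Hdc ranged from -0.0719 to 0.73, Hrh1 from -0.11 to 0.27 and Hrh2 from -0.20 to 0.38. The causes were not tested. No paired analysis was possible because the groups share no replicate number. No alternative scaling moved the median of all genes by over 0.1 on the log2 scale. Counts were lowest for Oprk1 and Chrm3 among the receptors, at 12 to 84 and 27 to 249 a library.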
